A study of Saccharomyces cerevisiae with 4 samples.

Results

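The 10 genes described here act in the synthesis and activation of fatty acids in the budding yeast Saccharomyces cerevisiae. They were chosen by name from the pathway, with the knowledge that several carry wide peaks in this list, and were FAS1, FAS2, ACC1, OLE1, FAA1, FAA4, ELO1, FEN1, SUR4 and ACB1. They are 10 of 6002 protein-coding genes on nuclear chromosomes, and all 10 were found in the R64 gene table, where SUR4 is listed as ELO3. The table gives FEN1 as an older name of both ELO2 and RAD27, and it was taken here as ELO2, the elongase gene. Arp4, a nuclear actin-related protein of the NuA4 histone acetyltransferase and of the SWR1 and INO80 chromatin remodelling complexes, was located by chromatin immunoprecipitation and sequencing. Wild-type cells carried either ARP4 with a 3Flag tag (2 samples) or no tag (2 samples). Both were grown at 30 °C in rich medium (YPD) to mid-log phase, at an optical density of about 0.6, and the chromatin was precipitated with anti-Flag antibody. The data are 1 list of 1430 peaks named for the tagged wild type, so values carry no replicate error, read depth is unknown, and the untagged samples were not analysed here.

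In yeast, acetyl-CoA carboxylase makes malonyl-CoA, from which the cytosolic fatty acid synthase builds saturated acyl chains. Some of these chains are desaturated or lengthened in the endoplasmic reticulum, and fatty acids taken up from outside are joined to coenzyme A before use. The 10 genes cover these steps: FAS1 and FAS2 encode the subunits of fatty acid synthase, ACC1 the carboxylase, OLE1 the acyl-CoA desaturase, ELO1, FEN1 and SUR4 the elongases, FAA1 and FAA4 acyl-CoA synthetases, and ACB1 an acyl-CoA binding protein.

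Arp4 peaks lay inside 5 of the 10 genes, and none was listed inside the other 5. FAS1 and FAS2 carried 5 peaks each, OLE1 and FAA4 were each covered almost from end to end by 1 peak, and ACC1 had 1 peak near its start. FAA1, ELO1, FEN1, SUR4 and ACB1 had none inside the gene. A summit inside the gene, over 100 bp from both ends, was present in the same 5 genes (5 of 10), whereas 10.1% of all protein-coding genes had one. At least 1 bp of a peak overlapped those 5 genes, against 18.8% of all genes. These shares are descriptions with no test, because the genes were chosen with values of this list known. The 13 peaks together covered 10873 of 27522 bp (39.5%), and FAS1 and FAS2 held 63.1% of the covered bases. Over all protein-coding genes 4.98% of bases lay under a peak. The median share covered was 5.71% over the 10 genes, of which 5 were at 0, and 0 over all genes.

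**Figure D1:**
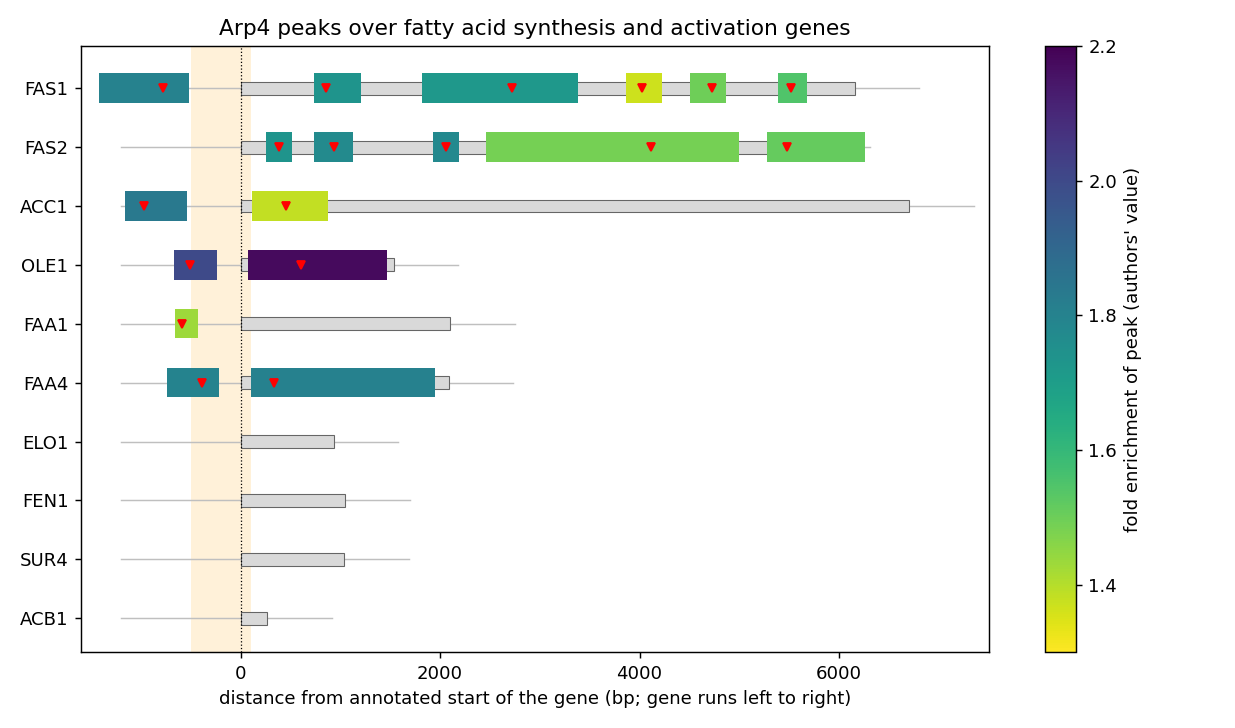
The 10 genes are drawn as grey bars by distance in bp from the annotated start, with Arp4 peaks as coloured boxes (colour, the authors' fold enrichment), summits as red triangles and the promoter window in orange. FAS1 and FAS2 carry 5 peaks each, OLE1 and FAA4 are covered almost throughout, ACC1 has 1 peak near its start, and 5 genes have no peak inside.

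FAS1, which encodes the beta subunit of the synthase, is 6156 bp long and was covered over 49.4% of its length, or 33.0% when peaks below the median fold of the list were left out. With a −log10 q of at least 10, 43.6% of FAS1 was covered. Its first 733 bp were free of peaks. The first peak (chromosome XI, 101404 to 101876) had its summit 852 bp inside the gene and a fold enrichment of 1.73 over the peak caller's background. The second (102493 to 104049) was 1557 bp wide, with a fold of 1.72 and its summit 2726 bp inside, at 44.3% of the gene length. The 3 peaks that follow were 291 to 364 bp wide, with folds of 1.37, 1.50 and 1.55 in order along the gene. The stronger peaks of FAS1 thus lay in the 5' part of the gene. The −log10 q of the 5 peaks was 6.09 to 17.0, against a median of 15.9 over the whole list.

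FAS2, which encodes the alpha subunit, is 5664 bp long and was covered over 67.5% of its length, or 16% when peaks below the median fold were left out. With a −log10 q of at least 10, the coverage of FAS2 stayed at 67.5%. The first 3 peaks were narrow (259, 389 and 260 bp), with folds of 1.74, 1.77 and 1.78 and summits 384, 937 and 2056 bp inside the gene. The next peak (chromosome XVI, 111117 to 113644) was 2528 bp wide and took up 44.6% of the gene, with a fold of 1.49. It ranked 4 of 1430 by width but 1007 by fold. The last (113931 to 114913) had a fold of 1.51 and ran 598 bp past the end of the gene. In FAS2, as in FAS1, the peaks nearer the start had the higher folds. Coverage, by contrast, was 45.0% on the 5' side of the midpoint of FAS2 and 89.9% on the 3' side. In FAS1 the same shares were 56.2% and 42.5%.

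The genes of the synthase subunits lie on different chromosomes, and in this list they were the 2 protein-coding genes with at least 5 body summits (0.0333% of all genes). This count rests in part on peaks of low fold: with peaks below the median fold of the list left out, FAS1 had 2 body summits and FAS2 had 3. With a −log10 q of at least 10 they had 4 and 5. Because length gives room for more peaks, they were set beside the 527 genes of at least 3000 bp, of which 74 (14%) had a body summit. Of these 527 genes, 39 had 1 body summit, 22 had 2, 9 had 3 and 2 had 4. Those with 4 were FKS1, which encodes a glucan synthase subunit, covered over 23.2%, and YDR316W-B, covered over 25.7%. Most of the 9 genes with 3 were, like YDR316W-B, 5269 bp long. Equal length alone does not tell whether these genes share sequence. Whether they do, and whether reads could be told apart between them, was not examined. Their counts may therefore not compare with those of FAS1 and FAS2. By share covered, FAS2 ranked 2, below YEF3 (96.8%), which encodes a translation elongation factor. FAS1 ranked 4, below RPA135 (52.0%) as well, which encodes a subunit of RNA polymerase I. The stretches between adjacent peaks were 285 to 616 bp in FAS1 and 222 to 807 bp in FAS2. The settings by which the peak caller joins or splits neighbouring stretches are not stated in the sources used, so the number of peaks per gene holds for this list.

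ACC1, the carboxylase gene and at 6702 bp the longest of the 10, looked different. It held 1 peak (chromosome XIV, 660499 to 661263) with its summit 460 bp inside the gene and a fold of 1.38, which ranked 1198 of 1430. The remaining 5826 bp to the end of the gene were free of peaks, and 11.4% of the gene was covered. Its −log10 q of 8.38 was below the median of the list. ACC1 was 1 of the 39 long genes with a single body summit, and 44 of the 527 were covered at least as much.

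**Figure D2:**
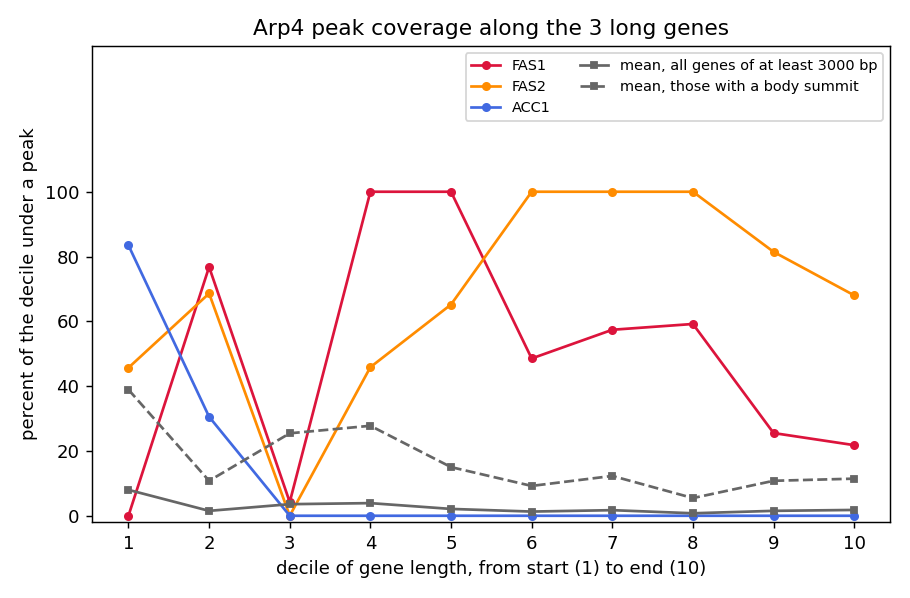
The percent of each decile of gene length that lay under a peak is drawn from start to end for FAS1, FAS2 and ACC1, with the mean over 527 genes of at least 3000 bp (solid grey) and over the 74 of them with a body summit (dashed grey). FAS1 is fully covered in deciles 4 and 5, FAS2 in deciles 6 to 8, and ACC1 is uncovered from decile 3 on.

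When each gene was divided into 10 deciles of its length, numbered from the start, the 3 long genes had different profiles. Over all 527 long genes the mean coverage was highest in decile 1, at 7.99%, and 0.766 to 3.90% in the others. ACC1 too was most covered in decile 1 (83.5%), with 30.6% in decile 2 and 0 beyond. FAS1 had 0 in decile 1 and 100% in deciles 4 and 5. FAS2 had 45.7% in decile 1 and 100% in deciles 6 to 8. Both synthase genes were nearly free of peaks in decile 3 (4.22% in FAS1 and 0 in FAS2).

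OLE1, the desaturase gene, had the highest fold of the 10 genes. One peak (chromosome VII, 398697 to 400099) was 1403 bp wide, began 69 bp inside the gene, ended 61 bp before its end and so covered 91.5% of its 1533 bp. Its fold reached 2.18 (−log10 q, 45.0), and it ranked 228 of 1430 by fold and 21 by width. A second peak (397956 to 398391) with a fold of 2.0 had its summit 505 bp upstream of the start. OLE1 thus had enrichment on both sides of its start, with the stretch from 237 bp upstream to 69 bp inside free of peaks.

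FAA4 had a similar layout, and its close relative FAA1 did not. In FAA4 a peak of 1846 bp (chromosome XIII, 759914 to 761759) began 107 bp inside the gene and ended 132 bp before its end, covering 88.5% of 2085 bp. Its fold was 1.81 and its −log10 q 25.7. A second peak (759071 to 759592) with a fold of 1.80 had its summit 386 bp upstream. FAA1, of nearly the same length (2103 bp) and with the same activity, had no peak inside the gene. Its nearest summit lay 590 bp upstream, in a peak 226 bp wide (chromosome XV, 908690 to 908915) whose fold (1.43) and −log10 q (8.01) were both below the list medians of 1.66 and 15.9. The next peak on the other side lay 401 bp beyond the end of FAA1, with a fold of 1.43. The difference between FAA1 and FAA4 is one between 2 genes in 1 list, with no replicate behind it.

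Among the 1721 genes of 1500 to 2999 bp, the class that holds OLE1, FAA1 and FAA4, 33 (1.92%) were covered over at least 50% of their length. OLE1 and FAA4 were among these 33. At least the coverage of OLE1 was reached by 9 genes of the class, OLE1 included, and at least that of FAA4 by 12. A body summit was present in 7.84% of the class.

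**Figure D3:**
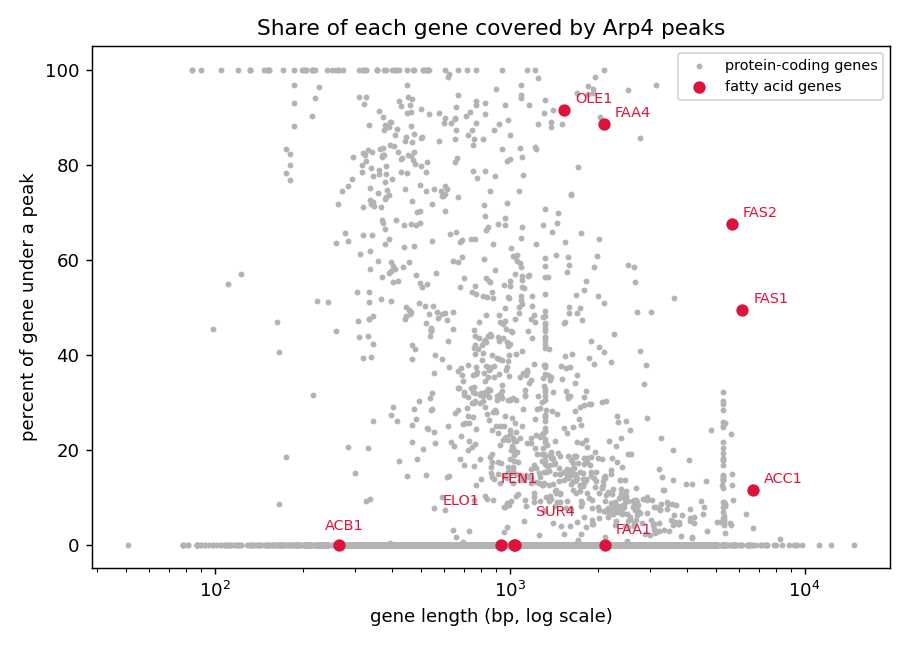
Each grey point is a protein-coding gene, by length (bp, log scale) and by the percent of the gene under a peak, with the 10 fatty acid genes in red. FAS1 and FAS2 stand above most genes of their length, at 49.4% and 67.5%, and FAA1, ELO1, FEN1, SUR4 and ACB1 lie at 0.

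The elongase genes and ACB1 carried no peak, either inside the gene or within 1000 bp upstream. ELO1 (933 bp) extends medium-length chains, and FEN1 (1044 bp) and SUR4 (1038 bp) extend long chains to the very long ones used in sphingolipids. The nearest peak to ELO1 was 5446 bp away, that to SUR4 2809 bp and that to FEN1 11043 bp. ACB1, at 264 bp the shortest of the 10, had its nearest peak 1768 bp away. All 3 elongase genes were thus alike in having 0 peaks in this list. No peak in the list does not mean that Arp4 is absent, since the depth and the limit of detection are unknown. A body summit was found in 9.77% of genes under 3000 bp, so most short genes had none.

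In the main window, promoter summits were about as frequent as over all genes, and in a wider one they were more frequent. Counting from 500 bp upstream to 100 bp inside the start, 1 of 10 (FAA4) had a summit, and 14% of all protein-coding genes did. The summit upstream of OLE1, at 505 bp, was just outside this window, and that of FAA4, at 386 bp, was the one inside it. With the window extended to 1000 bp upstream, FAS1 (777 bp upstream, fold 1.81), ACC1 (964 bp, 1.84), OLE1 and FAA1 joined FAA4, giving 5 of 10 against 23.7% of all genes. All 5 of these summits lay outside any protein-coding gene. FAS2 had none.

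Upstream summits of the 5 genes lay in intergenic regions of 975 to 1538 bp, and 4 of the 5 lay between divergent genes. ELO1 and ACB1, without an upstream peak, are divergent from their neighbours too. The share of divergent genes over all genes is not given here, so 4 of 5 is a description. OLE1 is divergent from SDS23 across 1009 bp, and the summit between them was 505 bp from each annotated start. ACC1 is divergent from TIM23, a gene of the mitochondrial protein import channel, across 1538 bp, FAA4 from COA6, a cytochrome c oxidase assembly gene, across 975 bp, and FAA1 from YOR316C-A across 1407 bp. FAS1 follows LOT5 in tandem across 1029 bp, and its upstream peak ran beyond this region into LOT5. FAS2, with no upstream peak, follows SSO1, which encodes a membrane fusion protein. The genes without any upstream peak had shorter upstream regions: 422 bp for FEN1, 555 bp for ELO1, 569 bp for SUR4, 687 bp for ACB1, and 504 bp for FAS2. Summits as far upstream as those of FAS1 and ACC1 (777 and 964 bp) would lie outside regions of this length. How this length relates to upstream summits over all genes is not given here and was not tested.

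The widths of the peaks, which were part of how the genes were chosen, are given here as a description. Peaks of at least 1500 bp numbered 18 in the list (1.26%), and 3 of them lay over FAS2 (2528 bp), FAA4 (1846 bp) and FAS1 (1557 bp). Such a peak overlapped 3 of the 10 genes and 0.4% of all protein-coding genes. Of these, the FAS1 peak was the narrowest of the 3 inside this limit, and the OLE1 peak, at 1403 bp, was the widest of those over the 10 genes that fell outside it. All 3 lay wholly within 1 gene, as did 7 of the other 15 wide peaks.

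The other genes with the widest such peaks, each overlapped over at least 1000 bp, were YEF3 (3036 bp, fold 2.21), PRM7 (2803 bp, 1.55), NOG1 (2798 bp, 2.35), EFT2 (2422 bp, 1.64), SRO9 (2345 bp, 2.33), FTR1 (2101 bp, 1.86), SSB2 (2077 bp, 1.84), PMA1 (1999 bp, 1.54), SSA2 (1838 bp, 1.55) and FET3 (1835 bp, 1.78). The peaks at PRM7, NOG1, SRO9 and FTR1 each overlapped 2 genes, with 50.5 to 74.8% of the peak in the gene named. YEF3 and EFT2 encode translation elongation factors, SSA2 and SSB2 chaperones of the Hsp70 family, PMA1 the proton pump of the plasma membrane, and FTR1 and FET3 the high-affinity iron uptake system. In the 7 others where the peak lay wholly within 1 gene, it covered 72.5 to 96.8% of that gene. FAA4 was within this range, whereas the wide peaks of FAS1 and FAS2 covered 25.3% and 44.6% of their longer genes.

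**Figure D4:**
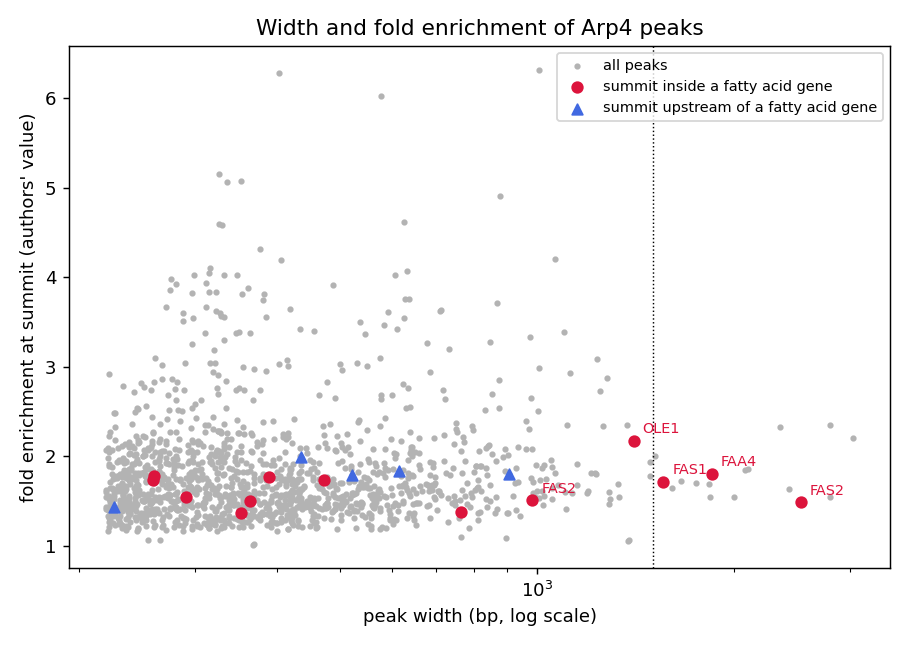
Each grey point is 1 of 1430 peaks, by width (bp, log scale) and by the authors' fold enrichment, with peaks inside the fatty acid genes in red, peaks upstream of them in blue and a dotted line at 1500 bp. The peaks of the fatty acid genes reach far in width but stay between folds of 1.37 and 2.18, while the list reaches 6.32.

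By fold the peaks of these genes were in the middle of the list. The 13 body peaks had folds of 1.37 to 2.18 with a median of 1.72, and 7 were at or above the list median of 1.66. All 671 body peaks of the list had a median fold of 1.53. The 5 upstream peaks had folds of 1.43 to 2.0. In FAA4 the promoter and body peaks had nearly the same fold (1.80 and 1.81). OLE1 had a slightly higher body peak than upstream peak (2.18 and 2.0), and ACC1 a lower one (1.38 and 1.84). The upstream summit of ACC1, however, lay nearer to the start of TIM23 than to that of ACC1. FAS1 had 1.81 upstream and at most 1.73 inside. With no replicate, the error of these differences is unknown.

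Of 66 other genes of lipid metabolism in 9 lists, 5 had a promoter summit (7.58%, against 14% of all genes) and 4 a body summit (6.06%, against 10.1%). Genes that work in the elongation cycle with the elongases (IFA38, PHS1 and TSC13) had no summit at all. FAT1, FAA2 and FAA3, which act in fatty acid import and activation, had none either, so of the FAA genes FAA4 was the one with a summit between 500 bp upstream and the gene end. Of 13 genes of fatty acid oxidation and its regulators, among them ADR1 and DCI1, 0 had a promoter or body summit.

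Single genes of the other lists had peaks. In the list of acetyl-CoA supply, PDC1, which encodes pyruvate decarboxylase, was covered over 95.0% by a peak of 1608 bp with a fold of 1.65. ALD6, an aldehyde dehydrogenase gene, had a summit 406 bp upstream with a fold of 1.41. ACS1 and ACS2, the acetyl-CoA synthetase genes, had none, and neither did HFA1, which encodes the mitochondrial counterpart of the ACC1 enzyme and is of similar length (6372 bp).

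Among partners and regulators of the desaturase, NCP1, which encodes a P450 reductase, had a summit 439 bp upstream with a fold of 2.35, in a region shared with SRB2. MGA2, which encodes an activator of OLE1, had a fold of 1.69 with the summit 9 bp upstream, in the window of DAL3 as well. UBX2, needed for the processing of that activator at the membrane, had a weak body summit (1.34). CBR1 and CYB5, the genes of the cytochrome b5 system, had none.

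In mitochondrial fatty acid synthesis, ACP1, the acyl carrier protein gene, had the highest promoter fold of the 66 genes, 2.74 (−log10 q, 107), and its summit lay 28 bp inside the gene. OAR1 of the same list was covered over 52.2% by a peak of 471 bp with a fold of 2.34, whose summit was in neither its promoter window nor its body. CEM1 and ETR1 had no summit. SLC1, an acyltransferase gene of glycerolipid synthesis, had a fold of 2.16 with the summit 65 bp inside, in the window of LHP1 as well. ARE1 and ARE2 of the same list had none. In sphingolipid synthesis, which uses the products of FEN1 and SUR4, 1 of 11 genes had a summit: TSC10, with a body fold of 1.55 in a peak whose summit also lay in the promoter window of REI1. AUR1 and IPT1 were among those with none.

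Of 8 genes for regulators of fatty acid synthase and carboxylase genes, RAP1, which encodes a sequence-specific DNA-binding regulator, had 2 weak body peaks (1.34 and 1.28, with −log10 q of 3.13 and 2.26). The other 7, among them ABF1 and GCR1, had none at the promoter or in the body.

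**Figure D5:**
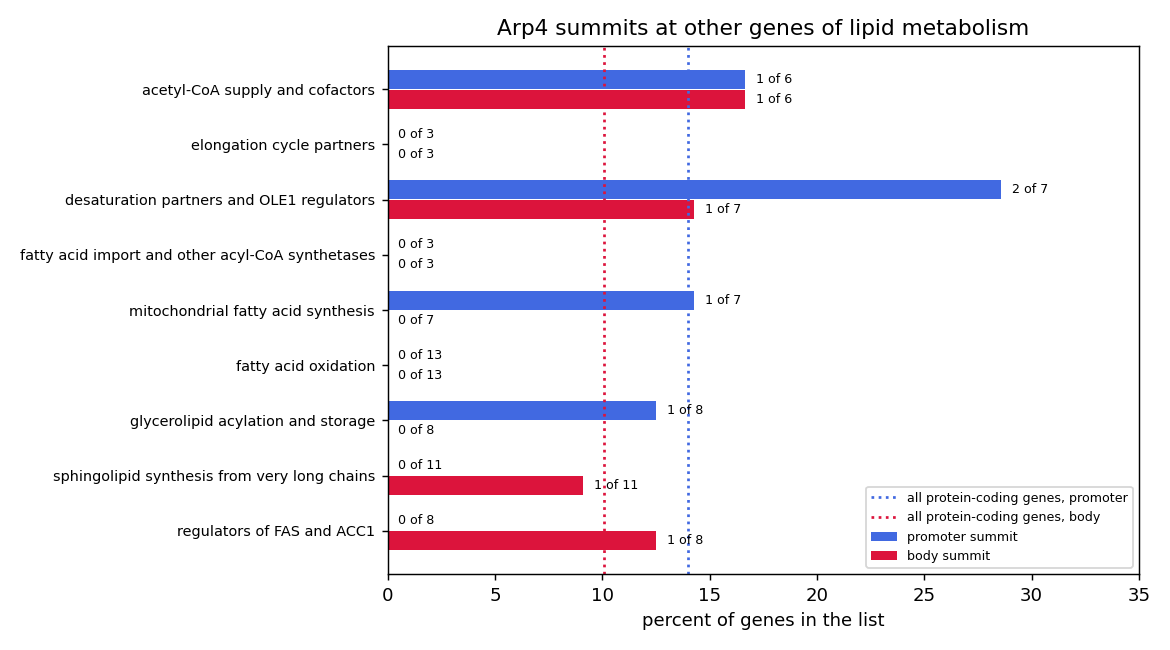
For each of 9 lists of other lipid metabolism genes, bars give the percent with a promoter summit (blue) and a body summit (red), with counts beside them, and dotted lines give the share over all protein-coding genes (14% and 10.1%). No list has more than 2 genes with a promoter summit or more than 1 with a body summit.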

How the data were processed

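The submitters' processing notes name MACS2, SAMtools 1.4, BWA 0.7.15-r1140 and fastp 0.21.0 without settings. The sources used here do not state genome build, control, threshold or whether the 2 tagged samples were pooled. The deposited list has the 10-column layout of MACS2. The authors' fold enrichment is a ratio at the summit over the caller's background, and the authors' −log10 values used here are of its q (lowest −log10 q 1.31). The deposited score, the whole part of 10 times −log10 q in 100% of cases, was set aside. Deposited starts are given here counted from 1.

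Genes were placed by the R64 table, with strand from the systematic name. At the positions as given, summits lay within 100 bp of 48 of 275 tRNA genes, and of 3 to 13 after shifts of 200 to 1000 bp. Counts were computed with Python 3.11.15, numpy 2.4.6 and pandas 2.3.3 and checked on simulated peaks. No test was run. The 10 genes, the 9 lists (66 of 66 names matched) and the rules were chosen with earlier results of these data known. All 10 genes were named; from each list up to 3 genes with and 2 without a summit; and the 10 widest other peaks of at least 1500 bp. The class of 1500 to 2999 bp, FKS1, YDR316W-B, RPA135, HFA1, OAR1, FAT1 and TSC13 were added after values were seen. Promoter motifs were planned but not searched, since no sequence was used here.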

Additional observations from a re-analysis of the deposited data

How the results depend on the processing

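Across 26 alternatives for 7 counts or medians, 16 stayed within 1.5 times the value reported and 10 did not. A promoter summit in 1 of 10 genes (14% of all genes) became 0 with a window from 250 bp upstream to the start (2.23%). It became 5 with a window reaching 1000 bp upstream (23.7%), and 3 when any peak base in the window counted (24.2%). The 5 genes overlapped by a peak became 3 with a minimum cover of 50%, while the share over all genes fell from 18.8% to 6.46%. The 3 genes with a wide peak became 1 at 2000 bp, while that share fell from 0.4% to 0.2%. The median share covered (5.71%) was 0 when weaker peaks than the median fold were dropped and also with a −log10 q of at least 10, because ACC1 then had no peak. It was 10.7% over the 9 genes longer than 400 bp when 200 bp were left out at each end. That set lacks ACB1, a gene at 0, so this change does not come from the trimming alone. Among the 66 other lipid genes, body summits fell from 4 to 0 and 2 under the fold and −log10 q thresholds. Over all genes the share with a body summit fell from 10.1% to 3.43% and 6.03%. Under the fold threshold, coverage fell to 16% in FAS2 and 33.0% in FAS1, and their 5 body summits each to 3 and 2, while OLE1 and FAA4 kept their coverage. Under the −log10 q threshold, coverage was 67.5% in FAS2 and 43.6% in FAS1, with 5 and 4 body summits. No paired analysis was possible because the list holds no values per sample. Depth is unknown, so neither a missing peak nor a small difference in fold can be bounded.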
